A study of Arabidopsis thaliana with 12 samples.

Results

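The comparison described here set linc1-1 seedlings against wild type (WT) seedlings after treatment with Pst hrcC. It comprised the 6 Pst hrcC libraries of the 12 in the series, 3 of WT and 3 of linc1-1, and the 16609 of 27371 listed genes whose mean over these 6 libraries was at least 1 FPKM. FPKM is the number of sequenced fragments scaled to transcript length and to the mapped fragments of the library. All seedlings were Arabidopsis thaliana of the Col-0 background, 14 days old, raised in long days at 23 °C on medium without sugar. WT was Col-0, and linc1-1 carried a T-DNA insertion in LINC1 (AT1G67230). Both lines were sprayed with Pst hrcC at an OD600 of 0.002 and taken whole for RNA after 24 hours. The 6 other libraries were mock-treated seedlings of the same lines, with 3 per line. linc1-1 is a single insertion allele, so that effects of the allele and of other changes in this line cannot be told apart.

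Pst hrcC is a strain of Pseudomonas syringae pv. tomato DC3000 without a working type III secretion system. It cannot deliver effector proteins into plant cells, and the plant meets mainly its surface patterns, which receptor kinases at the cell surface sense in pattern-triggered immunity. This response includes calcium influx, kinase cascades, WRKY and ethylene response factors, and changes in the cell wall. LINC1 is a coiled-coil protein of the nuclear periphery that is regarded as a plant counterpart of lamins, and loss of LINC proteins alters the size and shape of plant nuclei.

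LINC1 was measured first as a check of the labels. In TAIR10.1 it occupies positions 25151211 to 25156389 of chromosome 1. Its levels were 17.2, 23.2 and 28.3 FPKM in replicates 1, 2 and 3 of WT and 2.12, 3.76 and 2.41 FPKM in those of linc1-1, so that all 6 libraries held the level of their labelled line. The log2 fold change, linc1-1 against WT on the log2(FPKM + 1) scale as throughout, was -2.67 (SE 0.20, adjusted p = 0.000228 by limma, n = 3 libraries per group). The mock-treated libraries gave -2.94. The related LINC2, LINC3 and LINC4 had log2 fold changes of 0.26, 0.05 and -0.37, and none of them was called.

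The 3 WT libraries did not resemble each other equally. Across genes, Pearson's r was 0.918 between WT replicates 2 and 3 and 0.815 and 0.828 between these and WT replicate 1, whereas the 3 linc1-1 libraries gave 0.911 to 0.935 among themselves. On the first principal component (37.5% of the variance) WT replicate 1 lay at -48.1, beside linc1-1 at -30.4 to -13.6, and WT replicates 2 and 3 lay at 65.0 and 50.4. On the next component (25.8%) WT replicate 1 lay at 66.1, farther from linc1-1 (-42.0 to -18.5) than WT replicates 2 and 3 (6.0 and 14.5). Whole-seedling markers were measured as a check of the tissue. All 8 green tissue markers passed the minimum level. Their sum without the light-harvesting gene CAB1 (LHCB1.3), which was listed at 0 in linc1-1 replicate 1, was 29549 FPKM in WT replicate 1, 10763 and 7696 in WT replicates 2 and 3, and 17906 to 25067 in linc1-1. The sum of 11 root markers was 19.8 to 102 FPKM in WT and 50.6 to 58.8 in linc1-1, with EXPA7, EXPA18, PRP3 and NRT2.1 at 0 in 1 library or more. The number of fragments per library is not in the files, so the depth is unknown. The sums of FPKM differed from 9.05e+05 to 6.6e+06 per library, whereas the median FPKM over all listed genes was 1.44 to 2.26. Each line has its own deposited table, and whether both were scaled together is not stated, so that line and table cannot be told apart.

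After Pst hrcC, 30 genes were higher (0.181% of the genes tested) and 43 lower (0.259%) in linc1-1 than in WT by limma, where a call needed both a fold of more than 1.5 and an adjusted p below 0.05. Genes for cell wall enzymes, small lipid transfer proteins and U-box ubiquitin ligases and the calmodulin-like gene TCH3 were among the lower ones. Among the higher ones were a meiotic gene, an iron transporter, a glutathione transferase of glucosinolate synthesis and several genes without a symbol. In all 73 called genes the groups did not overlap. Over all genes tested, groups without overlap were seen for 14.9% in the higher and 6.29% in the lower direction, so that absence of overlap alone is no result about the called genes. Of all genes tested, 10925 (65.8%) had a positive log2 fold change and 5684 a negative one, the background for the signs in the gene lists below. The median log2 fold change of all genes tested was 0.14, and it was 0.02 after size-factor scaling. That scaling left the sign of all 73 genes as it was, kept 63 of the calls, and gave 21 higher and 63 lower genes in all. All 43 lower calls were kept, and the calls lost were all of higher genes. These were OPT3, ASN2, NRPE7, GRF4, AT1G33265, AT2G43445, AT4G33960, AT4G35730, AT1G57540 and AT1G05720 (adjusted p = 0.0512 to 0.0784 by limma). Without adjustment of p, 1113 genes would have been higher and 665 lower with the values as deposited, but 643 higher and 953 lower after size-factor scaling, so that this balance turned with the scaling.

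**Figure D1:**
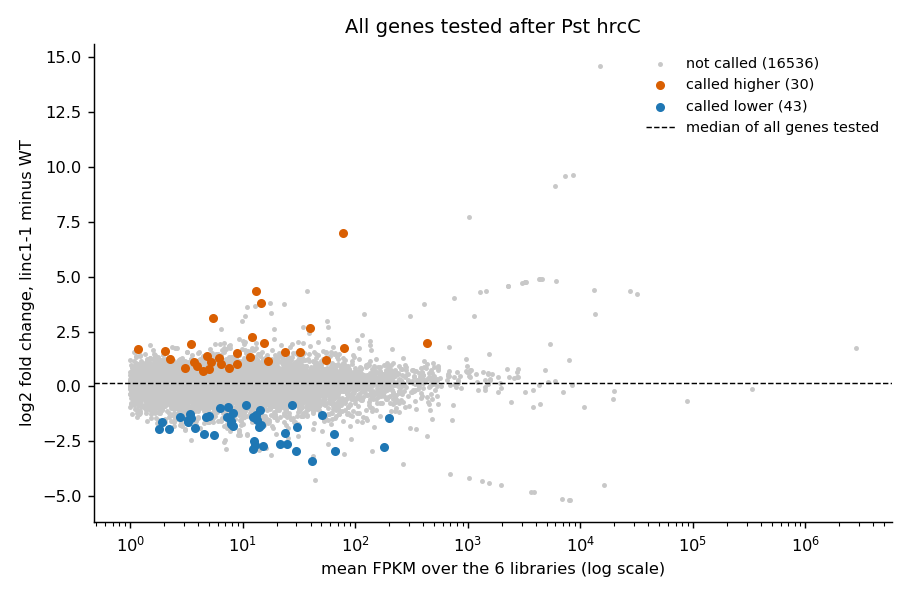
Log2 fold change of linc1-1 against WT after Pst hrcC (y axis) by the mean FPKM over the 6 libraries (x axis, log scale) for 16609 genes, each a point. The 30 genes called higher and 43 called lower are coloured, and of 878 genes beyond a log2 fold change of 1 in either direction 63 were called, while the dashed line marks the median of 0.14.

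Large changes in single libraries were not called. Of uncalled genes averaging at least 5 FPKM, the 25 with the largest changes were all listed at 0 in 1 library or more, and 16 of them were listed at 0 in 5 of the 6. Of these 25, 6 carry chloroplast identifiers. The light-harvesting gene CAB1 was listed at 18042, 19802 and 14917 FPKM in WT and at 0, 23355 and 20958 FPKM in linc1-1. A value of 0 beside such levels can be a failed estimate, and values of 0 are given here only as listed. ATCG00560 was listed at 0 in all 3 WT libraries and at 23290, 54807 and 12234 FPKM in linc1-1 (adjusted p = 0.14). In mock it was listed at 13243, 0 and 37771 FPKM in WT and at 22366, 0 and 8439 FPKM in linc1-1. It was chosen after its values were seen.

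The calls depended on which libraries entered the fit. Without both WT replicate 1 libraries (mock and Pst hrcC), 1936 genes were higher (11.7% of the genes tested) and 1066 lower (6.42%), and all 73 genes stayed called. Without WT replicate 3 of Pst hrcC 4 genes were higher and 2 lower. Without linc1-1 replicate 1 the counts were 3 and 1, and without linc1-1 replicate 2 they were 3 and 3. In a fit of only the 6 Pst hrcC libraries 3 genes were higher and 2 lower, and 4 of these 5 were among the 73: LINC1, HEI10, AT3G01345 and TAT7. LINC1, HEI10 and AT3G01345 were called under all 16 other settings. The sign of all 73 genes was the same under each setting in which they were tested.

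Lipid transfer proteins are small secreted proteins that bind lipids, and AZI1 of this family acts in the priming of systemic immunity. AZI1 (AT4G12470), EARLI1 (AT4G12480), a cold-responsive member, and AT4G12490 were all lower in linc1-1. They follow each other on the minus strand of chromosome 4 from 7401087 to 7401951, from 7406065 to 7406994 and from 7409621 to 7410406, with no annotated gene between them.

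AZI1 was listed at 47.3, 49 and 59.8 FPKM in WT and at 3.31, 3.95 and 13.6 FPKM in linc1-1 (log2 fold change -2.96, SE 0.49, adjusted p = 0.0337 by limma). EARLI1 stood at 39.7, 35.6 and 53.9 FPKM in WT and at 7.74, 3.94 and 7.5 FPKM in linc1-1 (-2.60, SE 0.34, adjusted p = 0.0118). The values of AT4G12490 were 43.9, 36.5 and 31.6 FPKM in WT and 2.81, 5.94 and 8.3 FPKM in linc1-1 (-2.60, SE 0.39, adjusted p = 0.0205). For these neighbours the lowest WT library lay well above the highest of linc1-1, and WT replicate 1 lay within or close to the range of the other WT libraries. The next gene of the cluster, AT4G12500, was listed at 14.7, 7.16 and 3.09 FPKM in WT and at 1.26, 2.65 and 1.2 FPKM in linc1-1 and was not called (adjusted p = 0.242). These genes are similar in sequence, and how the counting shared reads among them is not given in the sources used here. A further lipid transfer gene on chromosome 1, AT1G62510, was listed at 112, 121 and 118 FPKM in WT and at 9.4, 11.4 and 27.5 FPKM in linc1-1 (-2.93, SE 0.36, adjusted p = 0.0117). Its WT libraries were nearly equal, and linc1-1 replicate 3 was the highest of its group, as it was for AZI1.

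Xyloglucan endotransglucosylase/hydrolases (XTHs) cut and rejoin the xyloglucan chains that tie cellulose fibres together. XTR6 (AT4G25810) was listed at 21.7, 25.5 and 19.2 FPKM in WT and at 2.76, 1.04 and 3.35 FPKM in linc1-1 (log2 fold change -2.84, SE 0.38, adjusted p = 0.0124 by limma). TCH4 (AT5G57560), an XTH induced by touch, stood at 130, 483 and 333 FPKM in WT and at 42.4, 42 and 37.2 FPKM in linc1-1 (-2.74, SE 0.49, adjusted p = 0.0433). The 3 linc1-1 libraries were close together for TCH4, and WT replicate 1 lay between them and the other WT libraries. Of 15 XTH genes tested, 2 were called lower and none higher, 10 had a negative log2 fold change, and the median was -0.67 where that of all genes was 0.14. Of the uncalled members, XTH24, at 171, 829 and 716 FPKM in WT and 85.7, 141 and 150 FPKM in linc1-1, and XTH31, at 31.4, 0.462 and 0.266 FPKM in WT and 6.9, 8.84 and 6.74 FPKM in linc1-1, had WT replicate 1 far from the other WT libraries (adjusted p = 0.371 and 0.651). Both were chosen after their values were seen.

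PHI-1 (AT1G35140), of the EXORDIUM family of extracellular proteins linked to growth and carbon supply, was listed at 42, 114 and 74.9 FPKM in WT and at 5.29, 8.46 and 4.3 FPKM in linc1-1 (log2 fold change -3.40, SE 0.45, adjusted p = 0.0124 by limma). It had the most negative fold change of the called genes. The log2 fold change was negative for all 7 tested members of the family (median -0.56), and PHI-1 alone was called. Against WT replicate 1 the median of the family was -0.11, and against WT replicates 2 and 3 it was -1.24 and -0.89. The expansin-like gene EXLA1 (AT3G45970) was listed at 21.2, 54.5 and 42.6 FPKM in WT and at 7.28, 8.79 and 7.05 FPKM in linc1-1 (-2.12, SE 0.35, adjusted p = 0.0337). Expansins proper, which loosen walls, had a positive log2 fold change in 10 of 11 tested genes (65.8% over all genes tested). Their median was 0.58, and none was called. Against WT replicates 1, 2 and 3 alone the median of the expansins was -0.49, 1.19 and 0.97.

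**Figure D2:**
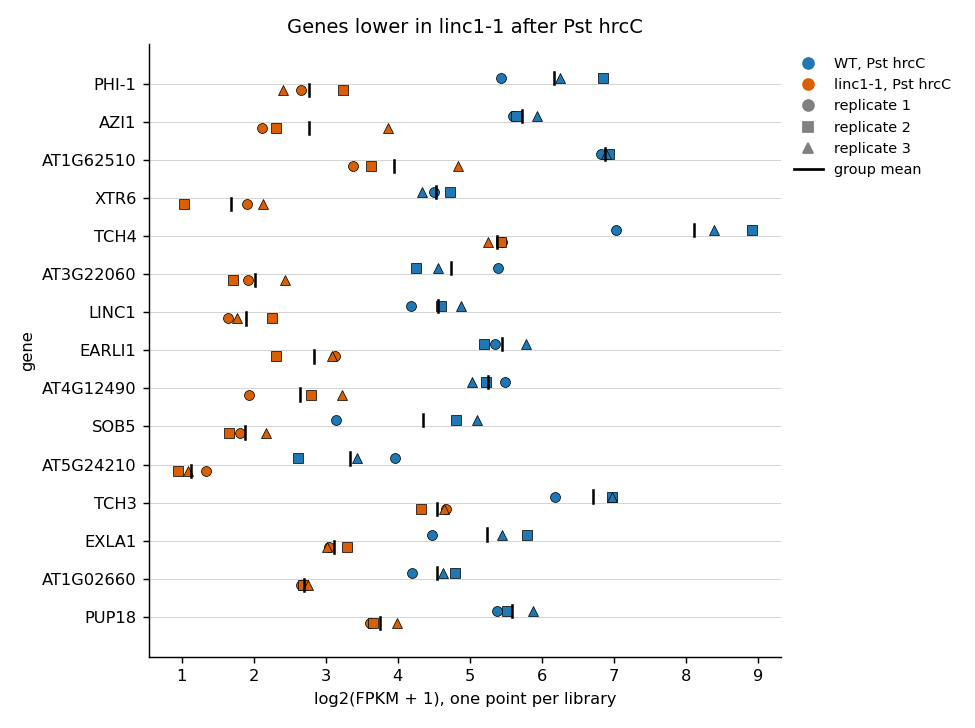
Levels of the 15 genes with the largest falls among called genes averaging 5 FPKM or more, as log2(FPKM + 1) on the x axis, with a point for each library, blue for WT and orange for linc1-1, symbols for the replicates and black bars for group means. The groups are separate for each gene, and WT replicate 1 (circle) is the lowest WT library for PHI-1, TCH4, SOB5, TCH3, EXLA1 and others and the highest for AT3G22060, AT4G12490 and AT5G24210.

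Calcium enters the cytosol within minutes of pattern perception and of touch, and calmodulin-like proteins bind it. TCH3 (AT2G41100), a calmodulin-like protein with several EF hands, was listed at 71.7, 124 and 124 FPKM in WT and at 24.4, 18.9 and 23.9 FPKM in linc1-1 (log2 fold change -2.17, SE 0.39, adjusted p = 0.0433 by limma). The groups lay far apart, with WT replicate 1 the lowest of WT. The median of the 7 tested touch and calmodulin-like genes was -0.57, all 7 were negative, and TCH3 alone was called. For 2 proteins annotated as calmodulin-binding, AT4G31000 and AT5G62570, the mean level was 11 ± 3.64 and 8.7 ± 0.826 FPKM (SD, n = 3) in WT and 3.4 ± 0.473 and 3.93 ± 0.0304 FPKM in linc1-1. Both were called lower (adjusted p = 0.0376 and 0.0415).

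Ubiquitin ligases of the U-box type mark proteins for degradation, and several are induced by microbial patterns. CMPG1 (AT1G66160), of this type, was listed at 11.9, 12.7 and 15.3 FPKM in WT and at 2.41, 3.17 and 3.72 FPKM in linc1-1 (log2 fold change -1.81, SE 0.22, adjusted p = 0.0104 by limma). PUB23 (AT2G35930), which dampens pattern-triggered immunity, stood at 17.1, 15.2 and 23.2 FPKM in WT and at 6.15, 6.24 and 6.78 FPKM in linc1-1 (adjusted p = 0.0396). The linc1-1 libraries nearly coincided for PUB23. Its close relative PUB22 was listed at 6.6, 8.44 and 11.2 FPKM in WT and 3.38, 3.44 and 4.79 FPKM in linc1-1, chosen after its values were seen, and was not called (adjusted p = 0.113). Of the 25 tested genes of pattern-triggered immunity PUB23 alone was called. Their median was -0.13, with 17 negative, and the kinase genes MPK3, MPK4 and MPK6 had log2 fold changes of 0.03, 0.08 and -0.10.

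Of the transcription factors, NAC019 (AT1G52890), which acts in jasmonic acid and abscisic acid responses, was listed at 7.61, 5.68 and 6.33 FPKM in WT and at 0.571, 0.842 and 1.73 FPKM in linc1-1 (log2 fold change -1.91, SE 0.25, adjusted p = 0.0118 by limma). In mock-treated seedlings its level was low in both lines, at 0.725 ± 0.403 FPKM (SD, n = 3) in WT and 0.343 ± 0.219 FPKM in linc1-1. MYB96 (AT5G62470), a regulator of abscisic acid signaling and cuticular wax, stood at 4.41, 5.27 and 5.94 FPKM in WT and at 1.42, 1.99 and 1.37 FPKM in linc1-1. HB-12 (AT3G61890), a homeodomain factor induced by abscisic acid, was at 16.8, 24.9 and 27.3 FPKM in WT and at 6.96, 5.03 and 6.11 FPKM in linc1-1. MYB96 and HB-12 were both called lower (adjusted p = 0.0117 and 0.0396). None of 19 WRKY genes was called. Of these genes, 16 were negative, and 9 had groups without overlap in the lower direction (6.29% over all genes tested). Their median was -0.79. Without both WT replicate 1 libraries, 8 WRKY genes were called lower and 1 higher (6.42% and 11.7% over all genes tested). WRKY70, with the largest difference among them, was listed at 16.4, 2.36 and 7.85 FPKM in WT and at 2.24, 2.18 and 1.63 FPKM in linc1-1 (adjusted p = 0.204). Its WT libraries spread over a wider range than the gap between the groups.

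Further lower genes came from several families. SOB5 (AT5G08150), linked to cytokinin levels, was listed at 7.8, 27 and 33.2 FPKM in WT and at 2.5, 2.15 and 3.49 FPKM in linc1-1. The tyrosine aminotransferase gene TAT7 (AT5G53970) stood at 6.35, 8.41 and 9.55 FPKM in WT and at 0.771, 1.11 and 1.15 FPKM in linc1-1. AT3G22060, a receptor-like kinase relative that lacks the kinase domain, was at 40.9, 18.1 and 22.6 FPKM in WT and at 2.77, 2.28 and 4.39 FPKM in linc1-1. These 3 genes fell by 2.47, 2.17 and 2.72 on the log2 scale (adjusted p = 0.0376, 0.0102 and 0.0118 by limma). DMR6 (AT5G24530), an oxygenase needed for susceptibility to downy mildew, was listed at 5.73, 5.24 and 5.36 FPKM in WT and at 0.874, 1.19 and 1.28 FPKM in linc1-1 (adjusted p = 0.0337). Its values were tight in both groups, with SDs of 0.256 and 0.215 FPKM. The purine permease genes PUP18 and PUP10, whose family moves purines and cytokinins across membranes, fell by 1.84 and 1.44 on the log2 scale. Of the alpha/beta-hydrolase genes, AT5G24210 was listed at 14.6, 5.1 and 9.76 FPKM in WT and 1.53, 0.926 and 1.12 FPKM in linc1-1, and AT1G02660 at 17.3, 26.6 and 23.8 FPKM in WT and 5.32, 5.42 and 5.72 FPKM in linc1-1. Both were called lower (adjusted p = 0.0337 and 0.0117), and another of this annotation, AT1G18460, fell by 0.84.

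Some genes were called with little spread between the libraries of a line. BT5 (AT4G37610), a BTB and TAZ domain protein, averaged 35.5 ± 1.13 FPKM in WT and 19.2 ± 1.1 FPKM in linc1-1 (SD, n = 3). TPS11 (AT2G18700), a trehalose phosphate synthase-like protein, stood at 68.8, 75.8 and 71.2 FPKM in WT and at 31.5, 26.8 and 27.7 FPKM in linc1-1. RTFL17 (AT1G13245), of the small ROTUNDIFOLIA peptides, was at 269, 297 and 308 FPKM in WT and at 108, 90.3 and 131 FPKM in linc1-1. All 3 were called (adjusted p = 0.0433, 0.0124 and 0.0355 by limma), and WT replicate 1 lay with the other WT libraries. AT2G23100 and AT2G23110, 631 bp apart on chromosome 2 on opposite strands, were both called lower, the first from 5.3 ± 0.956 to 1.18 ± 0.262 FPKM and the other, a late embryogenesis abundant protein, from 4.18 ± 2.49 to 0.236 ± 0.0365 FPKM (SD, n = 3).

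The lower genes not yet named fell by 0.92 (PP2-A11) to 1.92 (AT5G45630) on the log2 scale. AT5G45630, which has no symbol, stood at 3.2, 2.6 and 4.54 FPKM in WT and at 0.0614, 0.462 and 0 FPKM in linc1-1 (adjusted p = 0.00973 by limma), and it was among the 6 genes also called in mock. AT1G53870 and AT1G53890, of the LURP-one-like proteins, stood at 10.1, 13.4 and 12.3 FPKM and at 11.4, 12.1 and 13.7 FPKM in WT, and fell by 1.58 and 1.71. Their promoter windows are identical and their levels ran closely together, so that reads of this pair may be shared and they are uncertain as separate calls. OCT3 (AT1G16390), a transporter of the organic cation and carnitine family, was listed at 6.91, 7.19 and 7.71 FPKM in WT and at 2.16, 2.1 and 2.14 FPKM in linc1-1, with very little spread in either line. The others were CYP76C6, a cytochrome P450, and AT3G49160, AT3G11690, AT5G43450, AT3G04640, AT4G17840 and AT1G27100.

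Among the higher genes, AT3G01345 on chromosome 3, which has no symbol or described function in the annotation, had the largest difference. It was listed at 0.317, 0.189 and 0.15 FPKM in WT and at 141, 157 and 169 FPKM in linc1-1 (log2 fold change 7.01, SE 0.20, adjusted p = 1.56e-08 by limma). HEI10 (AT1G53490), a RING finger protein required for meiotic crossovers, stood at 0.587, 0.308 and 0.179 FPKM in WT and at 9.39, 11.8 and 10.6 FPKM in linc1-1 (3.10, SE 0.15, adjusted p = 3.18e-06). MRD1 (AT1G53480), which overlaps HEI10 by 1446 bp on the other strand of chromosome 1, was listed at 0 in the 3 WT libraries and at 1.85, 1.83 and 3.4 FPKM in linc1-1 (adjusted p = 0.00759). These genes were near 0 in WT and clearly present in linc1-1 under both treatments. The study used a stranded kit, but whether strand was used in the counting is not given in the sources used here, so reads of MRD1 and HEI10 may be shared.

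A transporter of iron and an enzyme of siroheme synthesis were among the higher genes. OPT3 (AT4G16370), which loads iron into the phloem, averaged 11.4 ± 1.85 FPKM in WT and 36.1 ± 5.57 FPKM in linc1-1 (SD, n = 3; log2 fold change 1.58, SE 0.28, adjusted p = 0.0433 by limma). UPM1 (AT5G40850), an enzyme on the way to siroheme, the cofactor of sulfite and nitrite reductases, stood at 18.7, 14 and 14.5 FPKM in WT and at 41.6, 63 and 43.4 FPKM in linc1-1 (adjusted p = 0.0444). Both groups were separate by a wide gap. Of 18 tested genes of iron uptake and storage, OPT3 alone was called and 14 were positive, where 65.8% of all genes tested were. The median of the 18 was 0.71. After size-factor scaling OPT3 was not called (adjusted p = 0.0512 by limma). AT1G47400 of this list was listed at 0, 2.33 and 7.2 FPKM in WT and at 16.6, 31.1 and 49.4 FPKM in linc1-1, and the ferritin gene FER1 at 20, 36.9 and 29.1 FPKM in WT and at 11.6, 17.1 and 10 FPKM in linc1-1. Both were chosen after their values were seen and neither was called (adjusted p = 0.0807 and 0.184).

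GSTF11 (AT3G03190), a glutathione transferase of aliphatic glucosinolate synthesis, was listed at 5.06, 3.08 and 2.59 FPKM in WT and at 18.4, 19.4 and 23.4 FPKM in linc1-1 (log2 fold change 2.25, SE 0.30, adjusted p = 0.0124 by limma). It was the only called gene of 27 tested in this pathway. Of the 27, 25 were positive (65.8% over all genes tested), and 12 had groups without overlap in the higher direction (14.9% over all). Their median was 1.12. MYB28, the main activator of the pathway, stood at 15.6, 8.21 and 8.34 FPKM in WT and at 22.6, 28.6 and 25.7 FPKM in linc1-1, and was not called (adjusted p = 0.0683). MYB76, of the same family of activators, was at 0.286, 1.05 and 1.02 FPKM in WT and at 2.02, 3.34 and 3.39 FPKM in linc1-1 (adjusted p = 0.0651). MYB28 and MYB76 were chosen after their values were seen. GSTU20, a glutathione transferase chosen after its values were seen, was listed at 136, 14.8 and 18.5 FPKM in WT and at 129, 191 and 136 FPKM in linc1-1, with WT replicate 1 among the linc1-1 libraries. The median of the 27 genes was 0.24 against WT replicate 1 and 1.53 against WT replicate 2. Without both WT replicate 1 libraries 21 were called higher (11.7% over all genes tested).

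A germin-like protein, a gibberellin-regulated peptide and a growth-regulating factor were also higher. GER3 (AT5G20630), the germin-like protein, was listed at 129, 202 and 206 FPKM in WT and at 646, 687 and 752 FPKM in linc1-1 (log2 fold change 1.98, SE 0.36, adjusted p = 0.0433 by limma). GASA4 (AT5G15230), the gibberellin-regulated peptide, stood at 32.1, 28.5 and 48.5 FPKM in WT and at 113, 122 and 131 FPKM in linc1-1 (adjusted p = 0.0433). Of 7 tested GASA genes it was the only one called, and the median of the family was 0.04, or -0.08 after size-factor scaling. GRF4 (AT3G52910), a growth-regulating factor of leaves, was listed at 3.37, 3.03 and 3.01 FPKM in WT and at 5.2, 6.09 and 6.14 FPKM in linc1-1 (0.72, the smallest change called, adjusted p = 0.0415). None of 18 cell cycle genes was called. Of these genes, 17 were positive (65.8% over all genes tested), and 9 had groups without overlap in the higher direction (14.9% over all). Their median was 0.79. CDC20.1, an activator of mitotic protein degradation with the largest difference among them, stood at 11.3, 4.75 and 6.55 FPKM in WT and at 20.5, 21.3 and 21.1 FPKM in linc1-1 (adjusted p = 0.119). The sum of 6 markers of dividing cells was 42.7, 18.9 and 26.1 FPKM in WT and 60.2, 58.3 and 66.8 FPKM in linc1-1, and the part of this in the result was not tested. In whole seedlings, more cells of a type and more RNA per cell cannot be told apart.

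**Figure D3:**
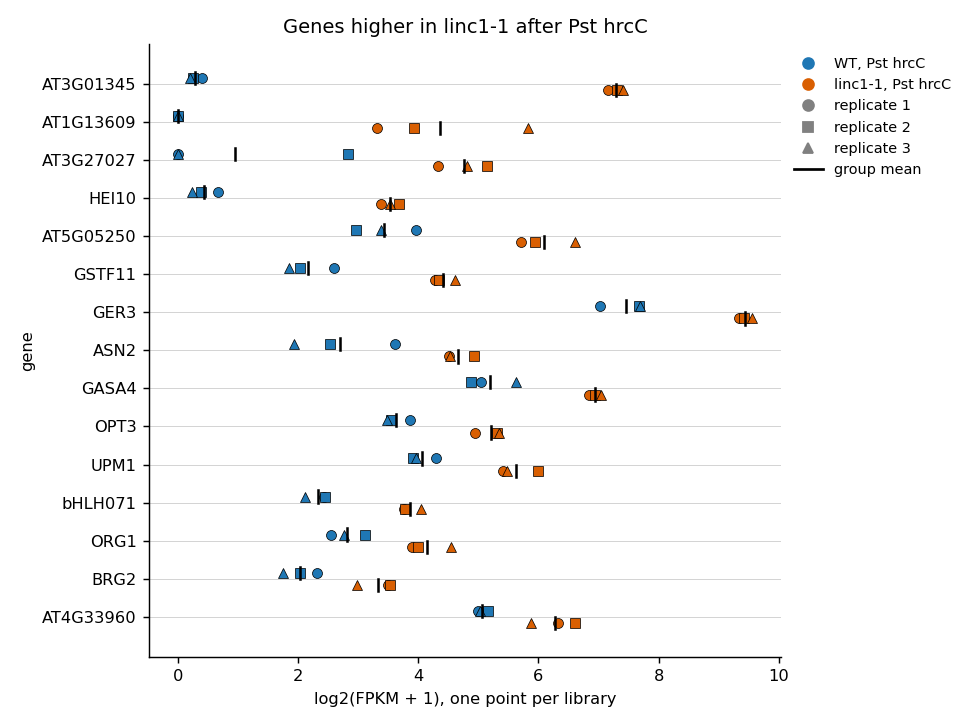
Levels of the 15 genes with the largest rises among called genes averaging 5 FPKM or more, drawn as log2(FPKM + 1) on the x axis with a point for each library, blue for WT and orange for linc1-1, symbols for the replicates and black bars for group means. AT3G01345 and HEI10 lie near 0 in WT, AT1G13609 is listed at 0 in all 3 WT libraries, and WT replicate 1 (circle) is the highest WT library for ASN2, AT5G05250 and others.

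Further higher genes included ASN2 (AT5G65010), an asparagine synthetase, which was listed at 11.2, 4.79 and 2.81 FPKM in WT and at 21.8, 29.4 and 22 FPKM in linc1-1 (adjusted p = 0.0493 by limma). AT5G05250, an uncharacterized protein, stood at 14.5, 6.8 and 9.46 FPKM in WT and at 51.3, 60.2 and 96.6 FPKM in linc1-1 (adjusted p = 0.0337). The lowest linc1-1 library was far above the highest WT library for AT5G05250, and nearer to it for ASN2. Among regulators, bHLH071 (AT5G46690) was listed at 4.38, 4.48 and 3.35 FPKM in WT and at 12.5, 12.8 and 15.6 FPKM in linc1-1, and BRG2 (AT1G79110), a RING protein of resistance to Botrytis cinerea, at 3.99, 3.1 and 2.37 FPKM in WT and at 10.3, 10.5 and 6.85 FPKM in linc1-1. ORG1 (AT5G53450), named for its response to the DOF factor OBP3, stood at 4.84, 7.62 and 5.82 FPKM in WT and at 13.9, 14.9 and 22.3 FPKM in linc1-1. All 3 were called (adjusted p = 0.0167, 0.0338 and 0.0205), with no overlap. NRPE7 (AT4G14660), a subunit of RNA polymerase V, which acts in DNA methylation guided by small RNAs, rose from 2.97 ± 0.958 to 7.37 ± 0.429 FPKM (SD, n = 3; adjusted p = 0.0337). AT3G27027, a short protein annotated as GPI-anchored-like, was listed at 0, 6.11 and 0 FPKM in WT and at 19.2, 34.3 and 27 FPKM in linc1-1, and AT1G13609, a defensin-like protein, at 0 in the 3 WT libraries and at 8.89, 14.2 and 55.8 FPKM in linc1-1. Both were called (adjusted p = 0.0337 each), and both are short genes in which a 0 can be a failed estimate. AT4G33960, without a symbol, stood at 30.8, 34.7 and 31.7 FPKM in WT and at 79.2, 96.2 and 58 FPKM in linc1-1 (adjusted p = 0.049). The higher genes not yet named rose by 0.80 (AT1G05720) to 1.92 (AT1G49570, a peroxidase) on the log2 scale. They also comprised AT2G28085, a SAUR-like auxin-responsive protein, AT5G53830, with a VQ motif, AT2G43445, an F-box protein, AT4G15690, of the thioredoxin family, AT3G02510, of the RCC1 family, AT2G23950, a leucine-rich repeat kinase, and AT4G37110, AT1G57540, AT4G35730 and AT1G33265.

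None of the lists for salicylic acid, ethylene, jasmonic acid and auxin held a called gene in the fit of all libraries. Of 12 tested genes of salicylic acid synthesis and response none was called, and the median was -0.53. The salicylic acid marker PR1 was listed at 98.2, 0 and 7.59 FPKM in WT and at 0.134, 0 and 0.108 FPKM in linc1-1 (adjusted p = 0.295), so that its difference rested on WT replicates 1 and 3 and the groups overlapped. Among 21 genes of ethylene synthesis and response, 18 were negative (median -0.40) and none was called. ERF-1 had the largest difference there, at 43.9, 100 and 99.5 FPKM in WT and 23.6, 24.2 and 27.6 FPKM in linc1-1 (adjusted p = 0.215). For jasmonic acid (JA), the medians were 0.11 over 15 synthesis genes and -0.38 over 19 genes of JAZ repressors and JA catabolism, with no call in either list. Over 11 outputs of the MYC branch the median was -0.01, with 6 negative, and over 7 outputs of the ERF branch it was 0.62, with all positive. Against WT replicates 1, 2 and 3 alone the median of the ERF branch was -0.79, 1.33 and 2.86. The JA oxidase gene AT2G38240, named JAO4 in the study, was listed at 27.5, 24.5 and 18.1 FPKM in WT and at 0.341, 0.132 and 26.7 FPKM in linc1-1 (adjusted p = 0.196). Its level in linc1-1 replicate 3 lay among those of WT. VSP1, a vegetative storage protein gene of the MYC branch, stood at 57.4, 44 and 67.3 FPKM in WT and at 157, 186 and 296 FPKM in linc1-1 (log2 fold change 1.87, adjusted p = 0.0625), without overlap. The defensin gene PDF1.2c of the ERF branch was at 265, 21.6 and 5.8 FPKM in WT and at 143, 121 and 84.4 FPKM in linc1-1 (adjusted p = 0.449), with WT replicate 1 above all linc1-1 libraries. All 10 tested auxin response genes were negative (median -0.76), and none was called. The amido synthetase gene WES1, at 7.79, 16 and 15.6 FPKM in WT and 4.48, 5.07 and 6.52 FPKM in linc1-1, had the largest difference there (adjusted p = 0.191). Without both WT replicate 1 libraries, 7 auxin response genes, 7 ethylene genes and 3 genes of JAZ repressors and JA catabolism were called lower. In that fit 3 ERF branch outputs and 1 ethylene gene were called higher. Calls higher and lower were 1 and 2 for salicylic acid, 0 and 1 for JA synthesis and 2 and 1 for the MYC branch. Over all genes tested, 11.7% were called higher and 6.42% lower there.

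Other lists depended on WT replicate 1. The chalcone synthase gene TT4, which starts flavonoid synthesis, was listed at 192, 25 and 24.4 FPKM in WT and at 27.6, 28.7 and 25.7 FPKM in linc1-1. Its log2 fold change was -0.83 with all libraries and 0.14 without WT replicate 1 (adjusted p = 0.634 and 0.502). The clock gene AT3G54500 stood at 66.1, 10.5 and 9.44 FPKM in WT and at 5.48, 5.91 and 4.95 FPKM in linc1-1 (adjusted p = 0.21). APR1, an enzyme of sulfate reduction, was at 26.9, 3.25 and 7.21 FPKM in WT and at 21.3, 25.3 and 32 FPKM in linc1-1 (adjusted p = 0.387). For these genes WT replicate 1 lay apart from the other WT libraries by more than the lines differed or near to it. The median of 26 photosynthesis genes was 0.56 against all WT, -0.21 against WT replicate 1, and 0.78 and 1.27 against WT replicates 2 and 3. COR15B, a cold-induced chloroplast protein, differed from these in that all 3 WT libraries were low, at 1.74, 7.94 and 5.57 FPKM against 35.5, 36.9 and 26.3 FPKM in linc1-1 (adjusted p = 0.163). The remaining lists gave no call. Their genes with the largest difference were STZ among zinc finger factors (log2 fold change -1.46, adjusted p = 0.152), IGMT1 in indole glucosinolate synthesis (-1.08, adjusted p = 0.467), LOX4 in JA synthesis (-0.68, adjusted p = 0.23), HSP70 among chaperones (-1.06, adjusted p = 0.193), EXPA6 among expansins (0.98, adjusted p = 0.437) and CASP1 among root genes (1.14, adjusted p = 0.397). Over all 29 lists, 3 of 378 tested genes were called higher and 10 lower, where 0.181% and 0.259% of all genes tested were. The lists were written with earlier results of these data known, so that these counts are no result about the lists.

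**Figure D4:**
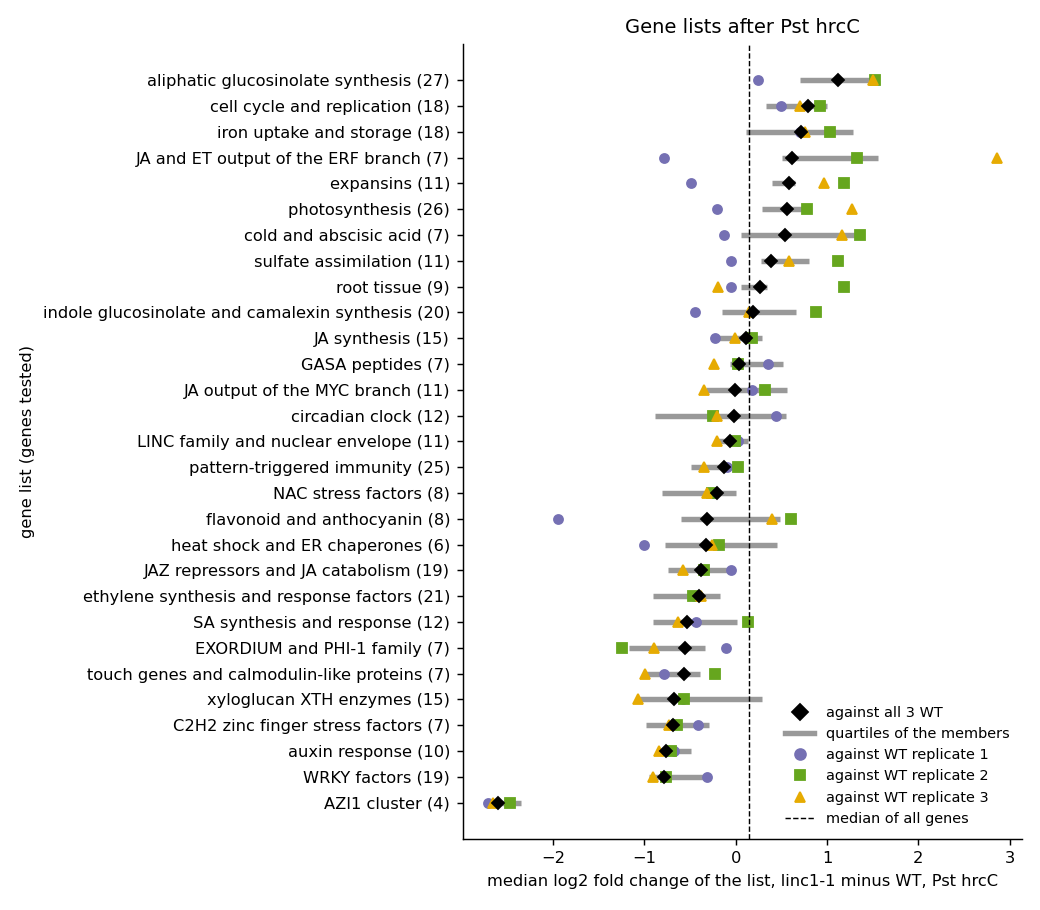
Median log2 fold change of linc1-1 against WT after Pst hrcC (x axis) for 29 gene lists (y axis, genes tested in brackets), against all 3 WT libraries (black diamonds, grey bars for the quartiles of the members) and against each WT library alone (coloured symbols). The dashed line marks 0.14, the median of all genes. The medians of the AZI1 cluster and of auxin response genes are alike against the 3 WT libraries, whereas those of photosynthesis genes and expansins are negative against WT replicate 1 and positive against the others.

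The called genes were also described by their structure, position and promoters, none of which entered the calls. The longest annotated transcript had a single exon in 15 of 43 lower and 9 of 30 higher genes, and in 17.1% of all tested genes with a protein-coding model. The median level was 12.3 FPKM in the lower, 8.2 FPKM in the higher and 5.37 FPKM in all genes. Unlike the other traits, the level does enter the calls, through the log2(FPKM + 1) scale and the variance trend. The calls lay on all 5 chromosomes, with 23, 8, 11, 14 and 17 on chromosomes 1 to 5. The genes tested there were 4308, 2503, 3307, 2496 and 3833. The motif CGCGT, the core of sites bound by calmodulin-binding transcription activators (CAMTA), was found on either strand in the promoters of 11 of 43 lower genes (25.6%), 3 of 30 higher genes (10.0%) and 9.4% of the 16457 promoters of tested genes. Promoters were taken as 250 bases before to 50 bases after the annotated start. Those of PHI-1, CMPG1 and EXLA1 are shown as lower genes of different families that hold CGCGT, with CGCGT and the W-box letters TTGAC, the core of WRKY binding sites, in capitals on either strand. They were read on the plus strand at chr1:12851733-12852032, chr1:24636946-24637245 and chr3:16895916-16896215 of the RefSeq copy of TAIR10.1.

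PHI-1: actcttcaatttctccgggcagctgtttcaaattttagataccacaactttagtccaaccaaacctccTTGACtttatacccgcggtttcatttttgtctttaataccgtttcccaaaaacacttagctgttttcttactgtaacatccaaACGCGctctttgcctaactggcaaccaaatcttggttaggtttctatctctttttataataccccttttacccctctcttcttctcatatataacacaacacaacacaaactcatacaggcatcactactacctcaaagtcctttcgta
CMPG1: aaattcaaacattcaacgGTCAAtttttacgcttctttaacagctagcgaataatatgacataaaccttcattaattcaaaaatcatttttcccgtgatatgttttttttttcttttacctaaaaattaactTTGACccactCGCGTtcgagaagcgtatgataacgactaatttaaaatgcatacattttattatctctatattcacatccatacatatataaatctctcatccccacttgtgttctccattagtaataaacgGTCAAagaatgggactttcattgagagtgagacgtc
EXLA1: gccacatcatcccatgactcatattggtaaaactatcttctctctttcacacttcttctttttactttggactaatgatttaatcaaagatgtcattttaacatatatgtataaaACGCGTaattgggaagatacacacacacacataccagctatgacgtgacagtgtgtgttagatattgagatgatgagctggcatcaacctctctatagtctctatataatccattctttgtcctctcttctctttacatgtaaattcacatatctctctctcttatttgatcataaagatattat

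PHI-1 holds 1 CGCGT match, CMPG1 holds 1, and EXLA1 holds 2 that overlap in a palindrome. PHI-1 and CMPG1 also hold 1 and 3 W-box matches, and EXLA1 none. The W-box TTGAC was found in 60.5% of lower, 46.7% of higher and 50.8% of all promoters. The G-box CACGTG was found in 16.3%, 10.0% and 8.9%, the TATA box TATAAA in 67.4%, 43.3% and 51.4%, the GCC-box GCCGCC in 4.7%, 3.3% and 2.7%, and the evening element AAATATCT in 7.0%, 10.0% and 6.0%, in the same order and on either strand. These shares are descriptions of a short window and were not tested.

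The same 73 genes were read in mock-treated seedlings. The mock libraries entered no mean of the contrast after Pst hrcC, but were in the same fit and shared its estimate of spread. The calls thus favour genes with little spread in mock too, which favours groups without overlap there. Of the 30 higher genes 29 were positive in mock, and all 43 lower genes were negative. The groups did not overlap in mock for 20 of the 30 and 36 of the 43, and over all 16609 genes tested they did not overlap there for 1180 in the higher and 1472 in the lower direction. The median log2 fold change of the higher genes was 1.45 after Pst hrcC and 0.67 in mock, and that of the lower genes was -1.71 and -0.90, with 70 of the 73 smaller in mock. The 73 genes were chosen by their values after Pst hrcC, and this choice favours larger differences there than in mock. In mock 6 genes were called over all genes tested (0.0361%), and these 6 were among the 73. A difference of the line effect between the treatments was tested by the interaction in limma. No gene passed, over all genes or among the 73, where the smallest adjusted p was 1.

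**Figure D5:**
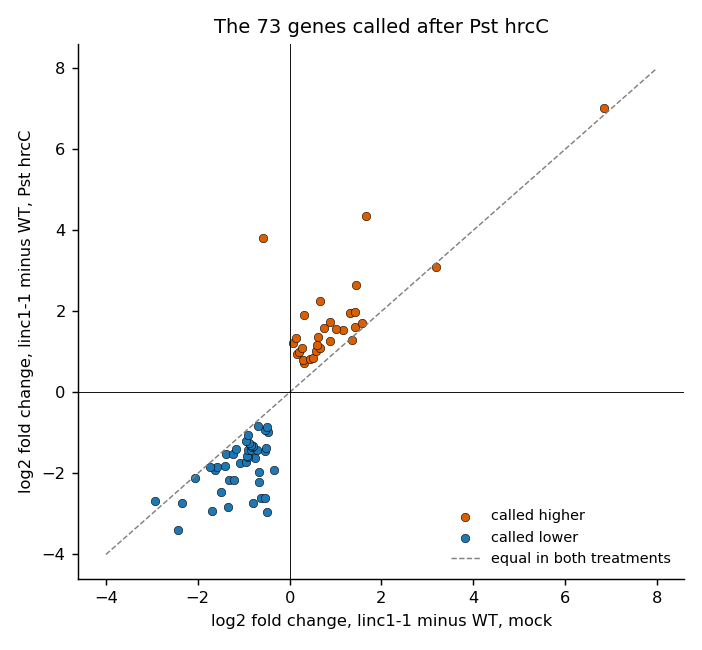
Log2 fold change of linc1-1 against WT in mock (x axis) and after Pst hrcC (y axis) for the 73 called genes, orange for higher and blue for lower, with a dashed line where both are equal. All but 1 gene, AT3G27027, have the same sign in both, and 70 of the 73 are farther from 0 after Pst hrcC.

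The levels in both treatments are given for a few of the 73 genes, chosen after their values were seen. In mock AT3G27027 averaged 13 ± 3.34 FPKM in WT and 8.49 ± 2.54 FPKM in linc1-1 (SD, n = 3), the reverse of its order after Pst hrcC. EARLI1 averaged 25.8 ± 4.22 FPKM in WT and 18.8 ± 9.46 FPKM in linc1-1 in mock, and 43 ± 9.61 and 6.4 ± 2.13 FPKM after Pst hrcC. GSTF11 stood at 1.1 ± 0.661 FPKM in WT and 2.37 ± 1.2 FPKM in linc1-1 in mock, and at 3.58 ± 1.31 and 20.4 ± 2.63 FPKM after Pst hrcC. EXLA1 averaged 66 ± 19.8 FPKM in WT and 15.4 ± 5.54 FPKM in linc1-1 in mock, and 39.4 ± 16.9 and 7.71 ± 0.949 FPKM after Pst hrcC.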

How the data were processed

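The authors sequenced stranded mRNA libraries of whole seedlings in pairs. The labels name TopHat2 2.1.1, Cufflinks 2.2.1 and the build TAIR10. The deposited values are FPKM in 1 table per line, and no counts were used.

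Of 27371 identifiers, 26703 (97.6%) were matched to TAIR10.1 (RefSeq), which gave symbols, positions and sequences. Genes averaging 1 FPKM or more over the 6 Pst hrcC libraries were tested on log2(FPKM + 1) with limma 3.58.1 in R 4.3.3, with 4 groups of 3 libraries in 1 fit, a variance trend and Benjamini-Hochberg adjustment over 16609 genes. Calls needed a fold of more than 1.5 and an adjusted p below 0.05. Low FPKM lay within 0.15 of whole multiples of a floor in 31.4 to 33.8% of cases, where 30% would by chance, so reads were not recovered.

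Named were LINC1, the 15 largest calls per direction that averaged 5 FPKM or more without overlap, called members of 29 gene lists (up to 4 each, otherwise the member with the largest change) and called neighbours. Other genes were named after their values were seen. Members and lists were chosen with earlier results of these data known. Replicate numbers were not used as pairs. Same-number libraries of the lines had r of 0.101, 0.0258 and 0.0968 between deviations from the group means. Alternatives were other pseudocounts, minimum levels, scalings, weights and sets of libraries. The promoter sequences of the AZI1 cluster are not reported here.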

Additional observations from a re-analysis of the deposited data

How the results depend on the processing

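The counts of called genes moved with the processing, and the cause was not tested. With 30 higher and 43 lower genes as reported, an unadjusted p gave 1113 and 665 (643 and 953 with size factors, 667 and 972 with quantile normalization), weights per library 902 and 680, leaving out both WT replicate 1 libraries 1936 and 1066, and a fit of only the 6 Pst hrcC libraries 3 and 2. With no minimum FPKM 17 genes were higher, and quantile normalization gave 87 lower. With a replicate block 9 genes were higher and 21 lower, all 30 among the 73. Same-number libraries of the lines had r of 0.101, 0.0258 and 0.0968, and libraries of different numbers -0.103 to 0.0441. Whether the numbers pair the libraries cannot be told from these values. Leaving out 1 library at a time gave 3 to 203 higher and 1 to 235 lower genes, the most without WT replicate 1. For the difference of the line effect between treatments, these fits gave 0 to 1 genes. LINC1 after Pst hrcC kept its call throughout, at -3.02 to -2.50. Of 842 values of the 53 other genes named by the rule, 605 kept direction and side of the threshold, 209 lost the call, 25 gained it and 3 reversed. The log2 fold change of TT4 was 0.14 without both WT replicate 1 libraries and -1.32 to 0.14 with 1 library left out, positive only without WT Pst hrcC replicate 1. The log2 fold change of CAB1 was -6.91 to 0.34 with 1 library left out, positive only without linc1-1 Pst hrcC replicate 1, where it is listed at 0. FPKM give no depth, so no limit of detection can be stated.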
